A study of Mus musculus with 11 samples.

Results

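The genes described here encode the moving core and the stiff wrappings of the sperm tail. They were listed by name as 37 genes of the axonemal dyneins, tektins, radial spokes, central apparatus, outer dense fibres and fibrous sheath. The count table held 36 of them among its 24411 genes, and Dnah3, the remaining symbol, was not analysed here. A filter on low counts was passed by 35 of the 36 in each comparison, and Rsph4a was the gene that did not pass.

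Each library was made from polyadenylated RNA of a whole decapsulated testis of a mouse aged 20 weeks that had received no treatment. The table covered 4 wild-type (WT) libraries, 4 libraries of mice with a global knockout of Aco1, the gene for iron regulatory protein 1 (Irp1-/-), and 3 libraries of mice with a global knockout of Ireb2, the gene for iron regulatory protein 2 (Irp2-/-). Both proteins bind iron-responsive elements in mRNA and set iron uptake and storage, and the study asked what the loss of Irp1 does to testis and sperm formation. The methods of the study place both WT and Irp1-/- mice (allele Aco1tm1Roua), bred as littermates, on a C57Bl/6J background and describe RNA of those genotypes, while the allele of the Irp2-/- mice is not given in the sources used here and their RNA is known here only from its labels.

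The tail of a mammalian sperm is built around an axoneme, a ring of microtubule doublets that surrounds a central pair. Dynein motors sit on the doublets as outer and inner arms and make neighbouring doublets slide, while radial spokes and the central apparatus pass on the signals that turn sliding into a beat. Tektins form filaments inside the doublets. Around the axoneme lie the outer dense fibres and, along the principal piece, the fibrous sheath, which stiffen the tail and hold kinases and glycolytic enzymes. The mRNAs for most of these proteins are made in spermatocytes and spermatids, and several dynein and spoke proteins have a counterpart that serves the cilia of airway, oviduct or brain ventricle.

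Total counts lay between 15902473 and 22451417 per library. The 36 genes together took 1.83% to 1.87% of the counts in WT, 1.81% to 1.85% in Irp1-/- and 1.79% to 1.87% in Irp2-/- libraries. Ireb2 was at 62.2 ± 0.514 CPM (SD, n = 3) in Irp2-/- against 139.6 ± 5.84 CPM (SD, n = 4) in WT testes, and Aco1 at 8.58 ± 0.622 CPM (SD, n = 4) in Irp1-/- against 11.8 ± 1.36 CPM in WT (edgeR adjusted p = 2.8e-13 and 0.0158). CPM are counts scaled to a common library size after TMM normalization (edgeR). The spermatid markers Prm1 and Prm2 averaged 3055 and 6407 CPM. The 6 epididymis markers summed to 3.10 to 4.92 CPM over the 11 libraries, most of it Rnase10 (average 3.22 CPM), with Lcn5 at 0 in all. The 5 blood markers, led by Hba-a1 and Alas2 (averages 17.99 and 16.4 CPM) and with Hbb-bs at 0 in all, summed to 30.1 to 37.1 CPM in WT, 37.2 to 56.7 in Irp1-/- and 24.5 to 38.4 in Irp2-/- libraries. Multiciliated cells use many of the same proteins, and their 9 markers summed to 650.5 to 704 CPM over the 11 libraries. Most of this came from Ccdc67 (253.6 CPM on average), Ccdc113 (216), Foxj1 (117) and Pifo (72.8), with Dnah9 at 7.12 and Ccno at 3.57 CPM. Mcidas, Sntn and Ccdc78 averaged 0.039, 0.025 and 0.88 CPM. The part of these lists in the levels of the flagellum genes was not tested.

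The promoters of these genes are shown first because the binding sites of RFX factors, called X-boxes, are known as a shared feature of ciliary genes. RefSeq gives 40 start sites for 33 of the 36 genes (GRCm38.p6), and the 250 bases before each were searched on both strands. The X-box half-site GTTGCC (or GGCAAC) lay in 12 of these 40 promoters (30%), and in 10.4% of all 32851 promoters of the same length. The cyclic AMP response half-site TGACG (or CGTCA), a binding site of the spermatid regulator CREM, lay in 5 of the 40 (12.5%) and in 17.8% of all promoters. The X-box half-sites belonged to 11 genes, and for 9 of them at least 1 half-site was centred within 100 bases of the start. Windows of 30 bases around the half-site nearest to the start of these 9 genes are given 5′ to 3′ on the strand of the gene, with the half-site in capitals:
Dnah10 (chr5:124725053-124725082, plus strand): cgcgctggcgccGTTGCCcaggtccccgtt
Dnaic2 (chr11:114727381-114727410, plus strand): ccagggttgctaGGCAACtggtaaactccg
Tekt1 (chr11:72361883-72361912, minus strand): cgttgcgtccgtccgGTTGCCatagagacc
Tekt2 (chr4:126325693-126325722, minus strand): gggcggttgctcGGCAACcagagccgcaaa
Spag6 (chr2:18698973-18699002, plus strand): cgattccgactgGTTGCCcaggagtgtggg
Spag16 (chr1:69826855-69826884, plus strand): actaggcaacgcGTTGCCgtagtaactgcg
Hydin (chr8:110266947-110266976, plus strand): cactctgcggttgctgtGGCAACagatggt
Odf3 (chr7:140847839-140847868, plus strand): cctttttagggaGTTGCCtggcacagacac
Ropn1l (chr15:31453692-31453721, minus strand): tgcgcagctcggGTTGCCtggagaccgcac

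The 9 windows span inner arm, outer arm, tektin, central apparatus, outer dense fibre and fibrous sheath genes, and Spag16, Tekt1 and Tekt2 each held a second half-site in the other orientation. The windows lie before a RefSeq start, but those of Spag6, Tekt1, Odf3 and Ropn1l lie inside the gene as annotated in GENCODE M21. The last bases of the Dnaic2 window also reach into its GENCODE gene. A match of letters describes the sequence and is not a measured binding site.

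In WT testes the 36 genes spanned about 4 orders of magnitude in level per length of transcript. Odf1, a small heat shock-like protein of the outer dense fibres, was at 1289 CPM per kb and Odf2, their main coiled-coil protein, at 1246 CPM per kb. They were followed by Ropn1l (989), Rsph1 (831) and Akap4 (792 CPM per kb). The dynein heavy chains, the largest motor subunits, stood far lower on this scale, at 66.6 CPM per kb for Dnah8, 35.3 for Dnah17 and between 9.77 and 17.5 for the 6 inner arm chains. Levels per length use the longest protein-coding transcript of GENCODE M21, so a gene whose main testis transcript is shorter would have a higher value.

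**Figure D1:**
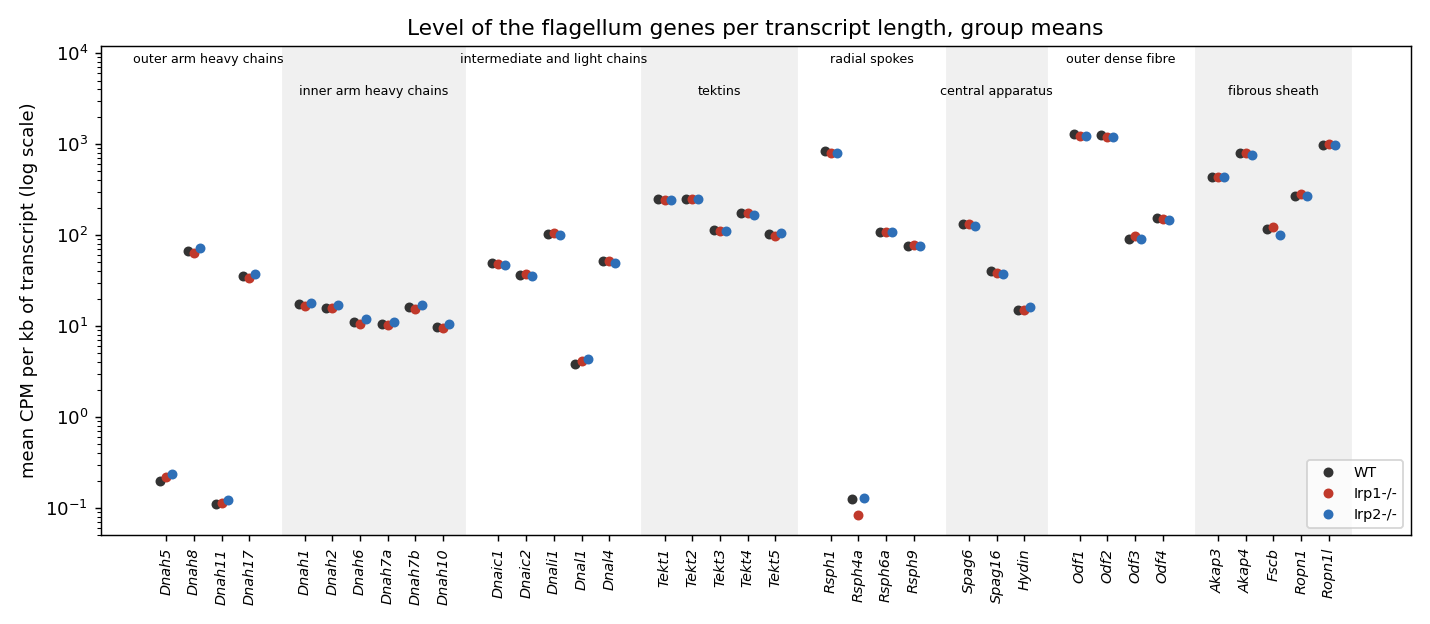
Mean level of each of the 36 flagellum genes per kilobase of transcript (vertical axis, CPM per kb on a log scale) by role class along the horizontal axis, with WT, Irp1-/- and Irp2-/- means as black, red and blue points. The 3 genotypes lie on top of each other for nearly every gene, while Dnah5, Dnah11 and Rsph4a lie far below the others of their classes.

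Large differences in level separated members of a class that serve different tissues. Dnah8 and Dnah17 are the outer arm heavy chains of sperm, and Dnah5 and Dnah11 are known from motile cilia. Per length, Dnah8 exceeded Dnah5 by a median of 334-fold over the WT libraries, 280-fold over the Irp1-/- and 321-fold over the Irp2-/- libraries. Dnah17 exceeded Dnah11 by 360-, 292- and 310-fold in the same order. For the spoke head pair, Rsph6a of sperm exceeded Rsph4a of motile cilia by 1020-, 1261- and 896-fold, with Rsph4a resting on 2 to 14 counts per library. The ranges over libraries overlapped between the 3 genotypes for each of these pairs. Smaller ratios held within the fibrous sheath, where Akap4 stood at 1.82, 1.82 and 1.76 times Akap3 per length in WT, Irp1-/- and Irp2-/-, and Ropn1l at 3.63, 3.49 and 3.69 times Ropn1. The Ropn1l ratios overlapped between genotypes, while the Akap4 ratios of the Irp2-/- libraries (1.67 to 1.76) lay below those of WT (1.78 to 1.84) and Irp1-/- (1.80 to 1.96), a difference that was not tested.

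The spread between replicates of these genes was small. The median coefficient of variation over the 35 tested genes was 3.31% in WT, 3.92% in Irp1-/- and 4.15% in Irp2-/- testes, beside 7.13%, 7.19% and 7.48% over all tested genes. The lowest was 0.847%, for Fscb in Irp2-/-, and the highest 44.9%, for the barely expressed Dnah11 in WT. WT replicates 1 and 2 were both above WT replicates 3 and 4 in 13 of the 35 genes and both below in 5. The same counts over all genes were not made, so it cannot be said whether this split is particular to these genes.

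The first comparison asked whether loss of Irp1 alters the mRNAs of the tail. None of the 35 genes differed between Irp1-/- and WT testes at an adjusted p under 0.05 in edgeR, where 1.02% of the 16002 genes tested did (164 genes), and DESeq2 called none of them either. An unadjusted p under 0.05 was reached by 2 of the 35 genes (5.71%) in edgeR and 3 in DESeq2, and by 12.1% of all genes in edgeR. The log2 fold changes ran from -0.08 (Tekt5) to 0.16 (Dnah5), with 14 above 0 and 21 below. Their median was -0.02, beside -0.00079 over all genes, and their median size was 0.043, beside 0.072 over all genes. The precision was high: for 32 of the 35 genes the 95% interval of the log2 fold change lay within 0.2 of 0 on either side, the exceptions being Dnah5, Dnah11 and Dnal1. The groups did not overlap for 4 genes, Odf3 above WT and Dnah1, Dnah7b and Odf2 below, where 6.63% of all genes did not overlap.

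The second comparison set Irp2-/- against the same 4 WT libraries, so the values of both comparisons share their reference. Of the 35 genes, 1 changed: Fscb fell in Irp2-/- testes (edgeR), where 1.21% of all 16154 genes tested were called and 0.842% were called lower. DESeq2 also called 1 of the 35. An unadjusted p under 0.05 was reached by 6 genes (17.1%), beside 9.42% of all genes. The median log2 fold change was -0.01, beside 0.0033 over all genes, with 15 genes above 0, and 24 of the 35 intervals lay within 0.2 of 0. The groups did not overlap for 6 genes, with Dnah6, Dnah17 and Hydin above WT and Fscb, Spag6 and Spag16 below, where 9.23% of all genes did not overlap.

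The direct comparison of the knockouts gave 3 called genes. Fscb was higher in Irp1-/- than in Irp2-/- testes, and the dynein heavy chains Dnah8 and Dnah6 were lower. Over all 16281 genes tested in edgeR 4.69% were called, 2.92% higher and 1.76% lower in Irp1-/-. DESeq2 called 3 of the 35 as well. An unadjusted p under 0.05 was reached by 12 genes (34.3%), beside 16.3% of all genes. The median log2 fold change was 0.01, beside -0.0019 over all genes, with 18 genes above 0, and 19 of the 35 intervals lay within 0.2 of 0. The groups did not overlap for 8 genes, 3 with Irp1-/- higher (Fscb, Spag6, Spag16) and 5 with Irp1-/- lower (Dnah1, Dnah6, Dnah7b, Dnah8, Dnah17), where 15.2% of all genes did not overlap. In whole testis RNA, fewer cells of a type and less RNA per cell cannot be told apart.

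**Figure D2:**
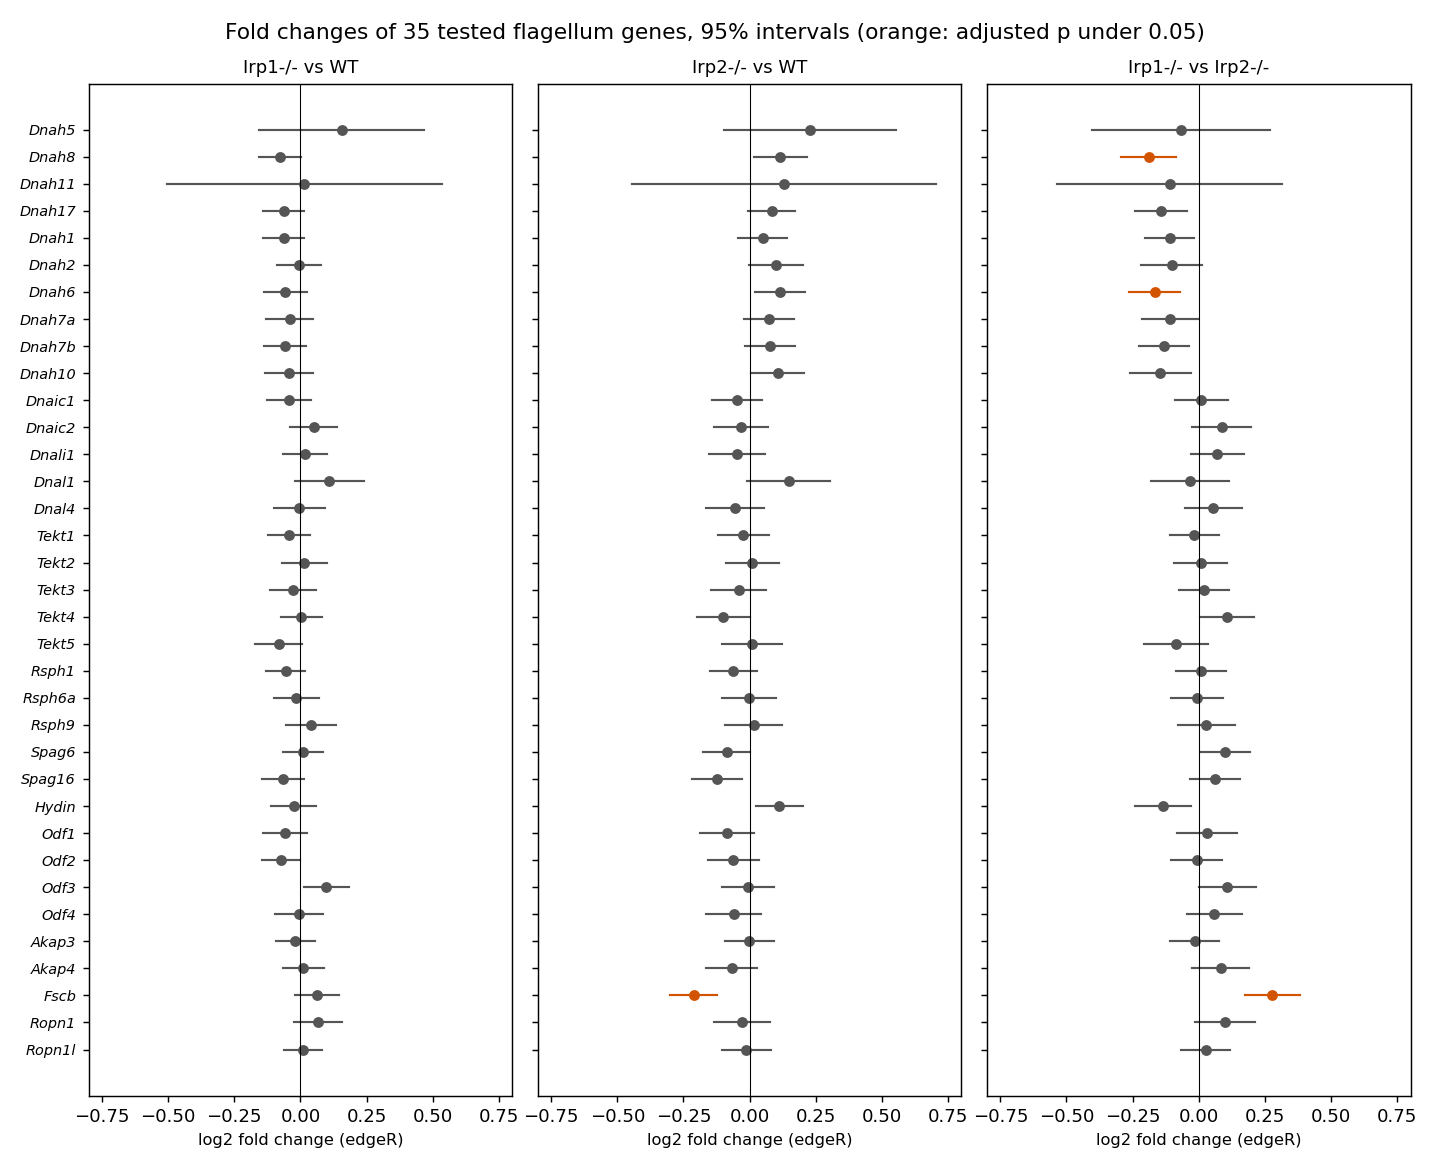
Log2 fold changes (points, horizontal axis) with 95% intervals (lines) of the 35 tested flagellum genes in the 3 comparisons, ordered by role class from the outer arm heavy chains at the top to the fibrous sheath at the bottom. Orange marks an adjusted p under 0.05 in edgeR: none for Irp1-/- vs WT, Fscb for Irp2-/- vs WT, and Fscb, Dnah6 and Dnah8 for Irp1-/- vs Irp2-/-.

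Fscb, a calcium-binding protein of the fibrous sheath that binds Cabyr, was the gene called in more than 1 comparison. It lies on chromosome 12 (mm10, 64471330 to 64474690, minus strand). Its level was 394, 399.5, 380.2 and 400.3 CPM in WT, 415.5, 442, 384.8 and 402.5 CPM in Irp1-/- and 342, 339.7 and 336 CPM in Irp2-/- testes. The 3 Irp2-/- libraries were the lowest of all 11 and close together, and the Irp1-/- libraries overlapped WT. The means were 394 ± 9.33 (SD, n = 4), 411 ± 24.1 (SD, n = 4) and 339 ± 2.88 CPM (SD, n = 3). Relative to WT, Irp2-/- differed by -0.21 on the log2 scale (SE 0.043, 95% interval -0.30 to -0.12, edgeR adjusted p = 0.00961), a difference of -13.7%. The same call had an adjusted p of 0.0566 without Irp2-/- replicate 2 and 0.0631 without WT replicate 2. Between the knockouts the log2 fold change was 0.28 (SE 0.050, 95% interval 0.18 to 0.38, edgeR adjusted p = 0.00126), and it stayed under 0.05 in each of the 14 alternative fits, at 3.2e-06 to 0.0145. For Irp1-/- against WT it was 0.06 (95% interval -0.02 to 0.15, edgeR adjusted p = 0.576).

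**Figure D3:**
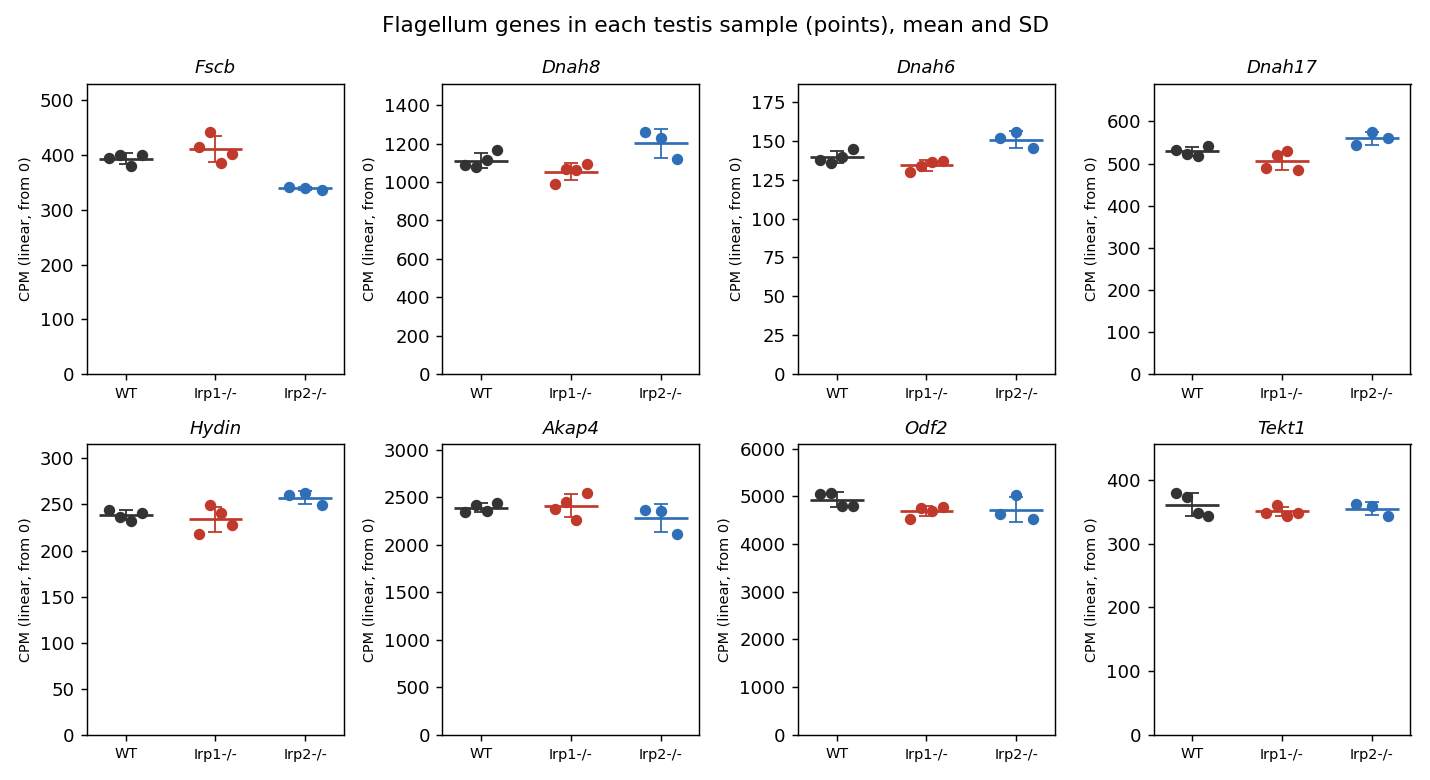
Level of 8 flagellum genes in each of the 11 testis libraries (points, CPM on a linear axis from 0), with the mean and SD of each genotype. The 3 Irp2-/- libraries lie below all others for Fscb and above all Irp1-/- libraries for Dnah6, Dnah8 and Dnah17, while Akap4, Odf2 and Tekt1 overlap between Irp2-/- and both other genotypes.

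The promoters of Fscb and Dnah6 are printed because these genes carried calls between the genotypes and differ in what the motif search found. Each is the sequence before the RefSeq start (GRCm38.p6) on the strand of the gene, 5′ to 3′, with any match to the cyclic AMP response or X-box half-site in capitals. For Fscb the RefSeq start lies upstream of the GENCODE gene start at 64474690, so the bases directly before that start are not printed. In Dnah6 the last 20 of the 250 bases were left out because the GENCODE gene reaches into them:
Fscb (chr12:64474899-64475148, minus strand): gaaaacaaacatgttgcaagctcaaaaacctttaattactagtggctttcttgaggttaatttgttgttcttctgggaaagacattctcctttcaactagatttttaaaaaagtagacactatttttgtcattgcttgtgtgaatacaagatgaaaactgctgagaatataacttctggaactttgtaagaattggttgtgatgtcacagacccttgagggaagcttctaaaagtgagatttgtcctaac
Dnah6 (chr6:73221652-73221881, minus strand): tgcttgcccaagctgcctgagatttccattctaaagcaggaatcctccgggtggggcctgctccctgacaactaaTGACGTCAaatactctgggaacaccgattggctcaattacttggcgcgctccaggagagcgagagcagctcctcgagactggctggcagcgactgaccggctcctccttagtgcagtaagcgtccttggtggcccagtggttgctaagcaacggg

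Dnah6 held an overlapping pair of cyclic AMP response half-sites that forms a palindrome, and Fscb held none of the letters searched. Only exact matches were searched, so near matches to the X-box half-site stay in lower case. An example is gttgctaagcaac near the end of the printed Dnah6 bases, where gttgct resembles GTTGCC and agcaac resembles GGCAAC. Whether such near matches act as X-boxes was not tested. No promoter bases are shown for Dnah8, and nothing is said here on its motifs.

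Among the outer arm heavy chains, the motors that set beat frequency, Dnah8 was at 1088, 1076, 1117 and 1164 CPM in WT, 990.4, 1068, 1064 and 1094 CPM in Irp1-/- and 1260.0, 1231 and 1117 CPM in Irp2-/- testes. All Irp2-/- libraries were above all Irp1-/- libraries, and WT lay between with an overlap on both sides. The log2 fold change of Irp1-/- against Irp2-/- was -0.19 (SE 0.050, 95% interval -0.29 to -0.09, edgeR adjusted p = 0.0293). This call was lost without Irp1-/- replicate 1, 2 or 6 or Irp2-/- replicate 1 or 2, at edgeR adjusted p = 0.0510 to 0.158. Against WT the log2 fold changes were -0.08 for Irp1-/- (edgeR adjusted p = 0.427) and 0.12 for Irp2-/- (edgeR adjusted p = 0.385). Dnah17 followed the same order, with 529 ± 11.4 CPM in WT, 506 ± 22.3 in Irp1-/- and 559.8 ± 15.9 in Irp2-/- (SD, n = 4, 4 and 3), and its difference between the knockouts did not pass (log2 fold change -0.14, edgeR adjusted p = 0.0900). Dnah5 had 3.02, 3.04, 3.33 and 3.10 CPM in WT, 3.09, 3.87, 4.04 and 2.83 in Irp1-/- and 3.25, 3.59 and 4.16 in Irp2-/- testes. All groups of Dnah5 overlapped, and its log2 fold changes against WT, 0.16 and 0.23, were the highest of the 35 genes with intervals of -0.16 to 0.47 and -0.10 to 0.55. Dnah11 stayed at 0.870 to 2.32 CPM in all libraries.

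The inner arm heavy chains, which shape the bend of the tail, all lay below 0 in Irp1-/- against WT (log2 fold changes -0.06 to -0.01) and above 0 in Irp2-/- against WT (0.05 to 0.11), and none was called in either. Dnah6 was at 137, 136, 139.7 and 145 CPM in WT, 129.7, 134, 136 and 137 CPM in Irp1-/- and 152, 156 and 145 CPM in Irp2-/- testes. The Irp2-/- libraries were above all others, the lowest of them barely above the highest WT library. Between the knockouts Dnah6 differed by a log2 fold change of -0.17 (SE 0.047, 95% interval -0.27 to -0.07, edgeR adjusted p = 0.0429), and against WT by -0.06 and 0.11 (edgeR adjusted p = 0.614 and 0.369). Its call was lost without Irp1-/- replicate 1, 2 or 6 or any of the Irp2-/- replicates, at edgeR adjusted p = 0.0515 to 0.206. Dnah1, whose loss in people and mice disrupts the axoneme of sperm, had the highest level of this class per length, with 224, 219.8, 221 and 237 CPM in WT, 214, 219, 219 and 211 CPM in Irp1-/- and 230.0, 239 and 230.2 CPM in Irp2-/- testes. Irp1-/- lay below both other genotypes, and none of its differences passed (edgeR adjusted p = 0.541, 0.837 and 0.202). The mRNAs of Dnah7a and Dnah7b share 40.3% and 48.4% of their 50-base words with each other or with Dnah7c, so their counts, at WT means of 129 and 198 CPM, are uncertain as to the copy. Dnah2 and Dnah10 had adjusted p-values of 0.160 or above in each comparison in edgeR.

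The calls of Dnah8 and Dnah6 went together with a relation between fold change and transcript length that was much weaker over all genes. The 10 heavy chains and Hydin are the 11 genes of the list with a transcript over 8 kb. Length and role as a heavy chain therefore cannot be told apart here, and the cause of the relation was not tested. In Irp2-/- against WT all 11 were above 0, with a median log2 fold change of 0.11, while over all 825 genes of that length the median was 0.047 and 67.8% were above 0. Of the 10 listed genes between 2 and 4 kb none was above 0 in that comparison, with a median of -0.06. Over all 6005 genes of that length the median was 0.0033 and 51.2% were above 0, so the low values were not shared by genes of that length. In Irp1-/- against Irp2-/- all 11 long genes were below 0, with a median of -0.13, beside -0.047 over 827 genes of that length. In Irp1-/- against WT the medians were -0.04 for the 11 and -0.0058 over 819 genes.

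**Figure D4:**
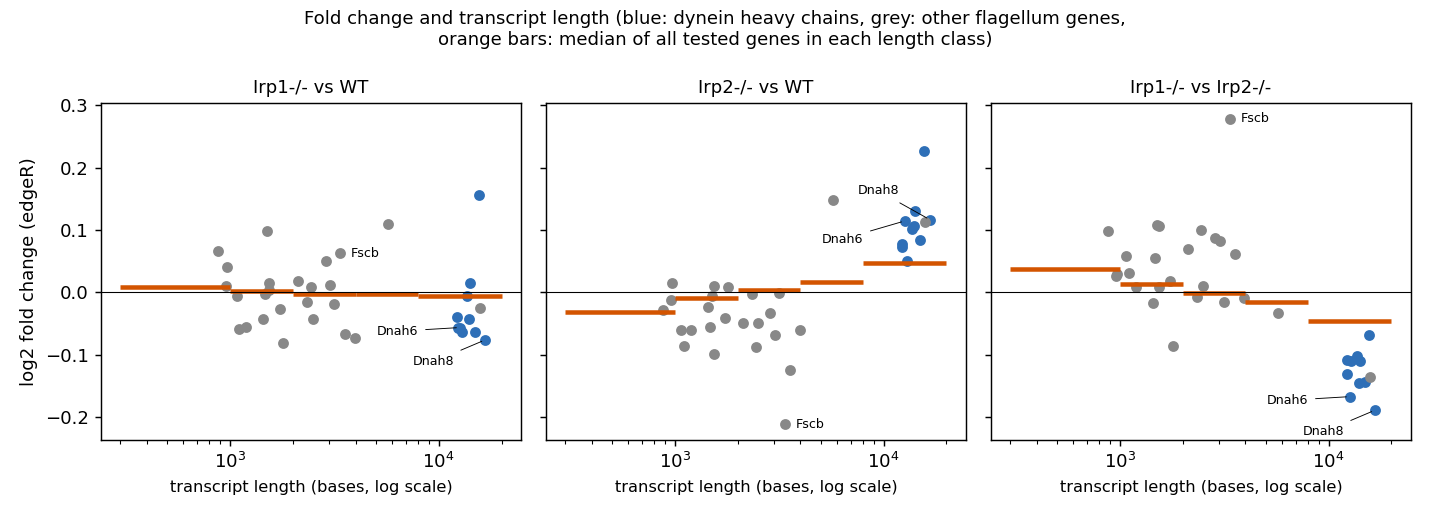
Log2 fold change (vertical axis) against the length of the longest protein-coding transcript in bases (horizontal axis, log scale) for the 35 tested flagellum genes in 3 comparisons, dynein heavy chains in blue and the others in grey, with the median of all tested genes of each length class as an orange bar. In Irp2-/- vs WT the genes over 8 kb lie at or above the bar of their class, and in Irp1-/- vs Irp2-/- they lie below it, with Fscb far from its own bar in both.

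Across the 35 genes, the correlation of log2 length with log2 fold change was r = 0.71 for Irp2-/- against WT, -0.73 for Irp1-/- against Irp2-/- and -0.15 for Irp1-/- against WT. Over all genes it was 0.099, -0.088 and -0.012. These values describe genes measured in the same libraries, which are no independent replicates. Removing the length trend of each library from the edgeR fit, an alternative chosen after seeing the data, left Dnah8 at -0.11 (edgeR adjusted p = 0.222) and Dnah6 at -0.11 (adjusted p = 0.208) between the knockouts. In that fit Dnah1 turned from 0.05 to -0.01 in Irp2-/- against WT, so not all 11 long genes stayed above 0. Fscb, with a transcript of 3361 bases, kept its calls in that fit, with adjusted p-values of 2.4e-04 between the knockouts and 0.00582 against WT in edgeR. The median log2 deviation from the WT mean over the 8 heavy chains above 50 CPM was -0.032 to 0.047 in the WT libraries, -0.10 to -0.020 in the Irp1-/- and 0.041, 0.134 and 0.061 in the Irp2-/- libraries.

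The smaller dynein subunits gave no call. Dnaic1 and Dnaic2, the intermediate chains of the outer arm, had 123 ± 1.87 and 104 ± 3.50 CPM in WT, 119 ± 4.52 and 108 ± 5.61 CPM in Irp1-/- and 119 ± 3.69 and 102 ± 5.20 CPM in Irp2-/- testes (SD, n = 4, 4 and 3). Dnali1, the light intermediate chain of inner arms, led this class per length with 229, 228, 221 and 203 CPM in WT, 226, 224, 225 and 217 CPM in Irp1-/- and 207, 227 and 204 CPM in Irp2-/- testes. All groups overlapped for these genes. The light chains Dnal1 and Dnal4 had WT means of 22.2 ± 1.34 and 75.7 ± 4.22 CPM, Irp1-/- means of 23.9 ± 0.797 and 75.5 ± 3.15 CPM and Irp2-/- means of 24.6 ± 2.19 and 72.7 ± 1.54 CPM. None of the 5 genes had an adjusted p under 0.467 in any comparison in edgeR.

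The tektins, filament proteins of the doublet wall, had log2 fold changes of -0.08 to 0.01 in Irp1-/- and -0.10 to 0.01 in Irp2-/- against WT. Tekt1 was at 379.7, 373, 348 and 343 CPM in WT, 348, 361, 344 and 349 CPM in Irp1-/- and 361, 359.7 and 343 CPM in Irp2-/- testes. WT replicates 1 and 2 were above the other WT libraries, and the groups overlapped. Tekt5 was at 182, 198, 181 and 187 CPM in WT, 188, 180.4, 165 and 174 CPM in Irp1-/- and 204, 190.0 and 169 CPM in Irp2-/- testes, and its log2 fold change of -0.08 in Irp1-/- was the lowest of the 35 (95% interval -0.17 to 0.01, edgeR adjusted p = 0.461). Those groups overlapped as well. Tekt2 had means of 381, 384 and 383 CPM in WT, Irp1-/- and Irp2-/-, Tekt3 of 198, 195 and 192 CPM, and Tekt4 of 271, 272 and 252 CPM.

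The radial spokes, which link doublets to the central apparatus, gave no call. Rsph1, a spoke head protein, was at 1002, 1005, 959 and 990.5 CPM in WT, 965, 911, 949.7 and 982 CPM in Irp1-/- and 955, 973 and 912 CPM in Irp2-/- testes, with log2 fold changes of -0.06 in both knockouts against WT (edgeR adjusted p = 0.578 and 0.761). The groups overlapped. Rsph6a had means of 256, 253 and 255 CPM and Rsph9 of 72.9, 75.0 and 73.5 CPM in WT, Irp1-/- and Irp2-/-. Rsph4a had 5 to 13 counts in WT, 2 to 9 in Irp1-/- and 6 to 14 in Irp2-/- libraries and was not tested.

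In the central apparatus, Spag6, an armadillo-repeat protein, was at 338, 323, 323 and 319 CPM in WT, 321, 324, 329 and 337 CPM in Irp1-/- and 301, 313 and 304 CPM in Irp2-/- testes. The Irp2-/- libraries were the lowest, and the log2 fold change against WT of -0.09 did not pass (edgeR adjusted p = 0.549). The related Spag6l shares 0.747% of the 50-base words of Spag6 and had means of 121, 127 and 118 CPM in WT, Irp1-/- and Irp2-/- testes. Spag16, a WD-repeat protein, was at 143 ± 4.42 CPM in WT, 137 ± 2.85 in Irp1-/- and 131 ± 1.5 in Irp2-/- (SD, n = 4, 4 and 3), with a log2 fold change of -0.13 in Irp2-/- against WT (95% interval -0.22 to -0.03, edgeR adjusted p = 0.289). Hydin, a giant protein of a central pair projection, was at 238 ± 5.25 CPM in WT, 234 ± 13.8 in Irp1-/- and 257 ± 7.11 in Irp2-/- (SD, n = 4, 4 and 3), with 0.11 in Irp2-/- against WT (edgeR adjusted p = 0.336). These genes thus lay on both sides of 0 in Irp2-/-, and none was called.

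Of the outer dense fibre genes, Odf1 was at 1479, 1437, 1377 and 1407 CPM in WT, 1334, 1483, 1296 and 1360.3 CPM in Irp1-/- and 1439, 1344 and 1239 CPM in Irp2-/- testes. The groups overlapped, and no comparison passed (edgeR adjusted p = 0.606, 0.659 and 0.858). Odf2 had the highest CPM of the list, 4935 ± 153 in WT, 4691 ± 111 in Irp1-/- and 4723 ± 269 in Irp2-/- (SD, n = 4, 4 and 3), and its Irp1-/- libraries lay below the 4 WT libraries by a log2 fold change of -0.07 (unadjusted p = 0.047, edgeR adjusted p = 0.402). Odf3 was at 136 ± 3.17, 146 ± 6.69 and 135 ± 6.89 CPM in the same order, with Irp1-/- above WT by 0.10 on the log2 scale (unadjusted p = 0.024, edgeR adjusted p = 0.312). Odf4 had means of 164, 164 and 157 CPM.

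The other fibrous sheath genes did not follow Fscb past the test. Akap3 and Akap4, the anchoring scaffolds of protein kinase A, had means of 1377 ± 39.4 and 2392 ± 46.2 CPM in WT, 1358 ± 41.3 and 2410.4 ± 122 CPM in Irp1-/- and 1374 ± 47.8 and 2279 ± 147 CPM in Irp2-/- testes (SD, n = 4, 4 and 3). Akap4 is X-linked, and its log2 fold changes against WT were 0.01 and -0.07 (edgeR adjusted p = 0.945 and 0.748). Ropn1l, which binds these scaffolds, was at 974, 966, 915 and 933 CPM in WT, 954, 957, 939 and 967 CPM in Irp1-/- and 976, 940.3 and 897 CPM in Irp2-/- testes, with overlapping groups. Ropn1 had means of 237, 249 and 232 CPM. In Irp2-/- against WT all 9 outer dense fibre and fibrous sheath genes were below 0, from -0.21 for Fscb to -0.00058 for Akap3, and Fscb was the 1 that passed. With the length trend removed, Odf3, Ropn1 and Ropn1l were at 0.00044, 0.0015 and 0.013, so not all 9 stayed below 0. The median log2 deviation of the 9 genes from the WT mean was -0.049 to 0.022 in the WT libraries. It was -0.070 to 0.057 in the Irp1-/- and 0.014, -0.019 and -0.095 in the Irp2-/- libraries.

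Levels of germ cell markers are given beside these values. The 8 markers of elongating spermatids, the cells that assemble the tail, summed to 21782 to 22716 CPM in WT, 20394 to 23543 in Irp1-/- and 18483 to 22431 in Irp2-/- libraries. None of the 8 was called in any comparison in edgeR. In Irp1-/- against WT 2 of the 8 lay above 0 with a median log2 fold change of -0.07, and in Irp2-/- against WT none did, with a median of -0.09. The 9 spermatocyte markers summed to 1379.5 to 1417 CPM in WT, 1315 to 1363 in Irp1-/- and 1326 to 1434 in Irp2-/-, with medians of -0.07 and -0.02 against WT, 2 and 4 of 9 above 0, and no call in any comparison. The 8 markers of round spermatids summed to 1844 to 1938 CPM in WT, 1883 to 2005 in Irp1-/- and 1737 to 1964 in Irp2-/-, with medians of 0.03 in Irp1-/- and -0.06 in Irp2-/- against WT, where none was called, while Tex21 was called higher in Irp1-/- than in Irp2-/-. The 9 Sertoli cell markers summed to 977 to 1056 CPM in WT, 1091 to 1223 in Irp1-/- and 979.8 to 1122 in Irp2-/-. Their medians against WT were 0.12 in Irp1-/- and 0.02 in Irp2-/-, with 9 and 5 of 9 above 0. Clu was called higher in Irp1-/- than in WT, and Amh, Rhox5 and Fshr higher in Irp1-/- than in Irp2-/-. Amh and Fshr averaged only 1.68 and 1.79 CPM. The 7 Leydig cell markers summed to 737 to 1067 CPM in WT, 995 to 1191 in Irp1-/- and 765 to 1007 in Irp2-/-. Their medians against WT were 0.40 in Irp1-/- and 0.07 in Irp2-/-, with 6 and 4 of 7 above 0 and no call. Hsd3b1 and Insl3 were called higher in Irp1-/- than in Irp2-/-. The 8 spermatogonia markers summed to 99.5 to 116 CPM in WT, 101 to 114 in Irp1-/- and 107 to 126 in Irp2-/-. Over the 7 tested, their medians against WT were -0.04 in Irp1-/- and 0.07 in Irp2-/-, with 2 and 5 above 0 and no call. Among them Sall4 (3.26 CPM on average) was called lower in Irp1-/- than in Irp2-/-. The part of these levels in the fold changes of the flagellum genes was not tested.

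Further genes of the flagellum were read from 10 lists, among them docking and assembly factors of dynein arms, the nexin-dynein regulatory complex, doublet inner proteins, the mitochondrial sheath and intraflagellar transport. Of 124 listed genes 115 were tested. In edgeR 1 of them (0.870%) was called in Irp1-/- against WT and 1 (0.870%) in Irp2-/- against WT, both times Tcte3, beside 1.02% and 1.21% of all genes. Between the knockouts 5 (4.35%) were higher in Irp1-/- and none lower, beside 4.69% of all genes called and 2.92% called higher. Their median log2 fold changes were -0.02, -0.03 and 0.0055. Tcte3, a dynein light chain of the t-complex, was at 177 ± 14.2 CPM in WT, 356 ± 35.2 in Irp1-/- and 211 ± 7.67 in Irp2-/- testes (SD, n = 4, 4 and 3). It rose by a log2 fold change of 1.01 in Irp1-/- and 0.26 in Irp2-/- (edgeR adjusted p = 3.5e-04 and 0.0137). Of its 50-base words 95.8% are shared with the gene models Gm3417 and Gm3448, so the copy behind these counts is uncertain. The other 4 genes were higher in Irp1-/- than in Irp2-/- by log2 fold changes of 0.23 (Efhc2, a doublet inner protein), 0.28 (Ribc1, likewise), 0.36 (Akap14, an anchoring protein) and 0.28 (Sept4, a septin of the annulus), with edgeR adjusted p-values of 0.0374, 0.0039, 0.0126 and 0.0016. Efhc2, Ribc1 and Akap14 are on chromosome X and Sept4 on chromosome 11, and none of the 4 was called against WT.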

How the data were processed

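The authors deposited raw counts per gene, made with an nf-core RNA-seq pipeline from Illumina stranded mRNA libraries (paired-end reads) against mm10. The counting tool was not given in the sources used here. All 11 libraries were grouped by their labels, and total counts of 15902473 to 22451417 set the counting precision. Irp1-/- replicate 6 has the letter R in its column name and the other libraries have L, unexplained and not used. Genes passing filterByExpr were fitted per comparison with edgeR 4.0.16 in R 4.3.3 (TMM, robust quasi-likelihood test, Benjamini-Hochberg over all tested genes, called under 0.05). DESeq2 1.42.0, RLE scaling, other filters, 1 fit of all samples, a replicate block, a length correction and leaving out each replicate were alternatives. The scripts were tested on simulated data. The labels do not say that libraries come from separate animals, so p-values measure the spread between libraries. All 15 pairs of replicates differed by more than sampling noise (chi-square per degree of freedom 1.97 to 6.75).

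Gene lists and members were chosen with earlier results of these data known. Values in every sample were given for called members, for the highest and lowest log2 fold change of each comparison, and for the member of each class with the highest WT CPM per kb, and among the other flagellar lists called genes were named. Spag6l and members without overlap between groups were named after their values were seen. Positions and lengths are from GENCODE M21, promoters from RefSeq (GRCm38.p6).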

Additional observations from a re-analysis of the deposited data

Results flagged for a closer look

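Among 72 groups of 4 samples (36 genes in WT and in Irp1-/-), 1 held a sample that stood apart by Dixon's criterion, where chance gives about 3.6. Odf4, a gene of the outer dense fibres, was at 179 CPM in WT replicate 1 and at 157 to 161 CPM in the other WT libraries.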

How the results depend on the processing

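The called flagellum genes kept their sign in the comparisons where they were called under every alternative run. The median of the flagellum genes, close to 0, changed sign for Irp2-/- against WT without Irp2-/- replicate 3 (0.0077) and between the knockouts without Irp1-/- replicate 2 (-0.01) or Irp2-/- replicate 1 (-0.0012) and with the length trend removed (-0.01). Without each replicate in turn, the flagellum genes called numbered 0 to 0 for Irp1-/- against WT, 0 to 1 for Irp2-/- against WT and 1 to 3 between the knockouts (edgeR). The count of all genes called ranged from 55 to 216, 118 to 223 and 414 to 763 in the same order, and the median log2 fold change of the flagellum genes from -0.03 to -0.0040, -0.03 to 0.0077 and -0.01 to 0.02. Fscb was lost against WT without Irp2-/- replicate 2 or WT replicate 2. Between the knockouts Dnah8 and Dnah6 were lost without Irp1-/- replicate 1, 2 or 6 or Irp2-/- replicate 1 or 2, and Dnah6 also without Irp2-/- replicate 3, while Fscb stayed. With the replicate block, 439 genes in place of 164 were called for Irp1-/- against WT. Irp1-/- shares only replicate numbers 1 and 2 with WT and with Irp2-/-. Those block fits thus estimate the genotype difference from these pairs alone, and their counts of calls cannot be set beside the main fit. For Irp2-/- against WT the block left 0 flagellum genes called (Fscb -0.20, edgeR adjusted p = 0.066), and the cause was not tested. Deviations of same-numbered samples correlated at 0.085 and 0.035, at 0.044, 0.116 and 0.048, and at 0.068 and -0.019 in the 3 comparisons. Of the 3 Irp2-/- samples, 2 correlated best with the WT sample of their number. These few small correlations cannot decide whether the replicate numbers pair the samples. With the length trend removed, chosen after seeing the data, 1 flagellum gene (Fscb) was called between the knockouts. Counts of 2 to 14 per library limit Rsph4a, and the few CPM of Dnah5 and Dnah11 widen their intervals.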
